A study of Danio rerio with 6 samples.

Results

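The finTRIM genes of zebrafish, with symbols that begin with ftr and a number, were followed in kidney marrow of tet2 mutant and wild type fish, to ask which copies differ between the genotypes and in which direction. Members were chosen by symbol alone, ignoring case. This gave 70 of the 31484 genes counted, ftr14l and ftr50.2 among them. RNA came from adult fish of 3 to 5 months. Marrow of each genotype was made into a cell suspension and passed through a 70 micron filter, and no sort is named. There were 3 libraries of genotype tet2 -/- (tet2 mutant) and 3 of genotype tet2 wt/wt (wild type), which the design calls biological replicates. The labels give neither the mutant allele, nor the sex of the fish, nor the number of fish per library.

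finTRIM proteins belong to the tripartite motif family, whose members carry a RING domain of the kind found in E3 ubiquitin ligases, followed by B-boxes and a coiled coil, and in most finTRIMs by a B30.2 domain at the end of the protein. The family is known from bony fish, where it was found through transcripts that virus infection raises in trout leukocytes, and it has grown by tandem duplication in zebrafish. Blood-forming marrow makes the macrophages, neutrophils and lymphocytes in which antiviral genes of this kind are studied. Many copies lie side by side, and how alike their sequences are was not measured here. Where copies are alike, a read can match several of them. How such reads were counted is not given in the sources used here, and values of single copies carry that limit.

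The tet2 mutant libraries 1, 2 and 3 held 49229143, 46637322 and 48300262 counts, and the wild type libraries 47228518, 41285460 and 43220770. CPM stands for counts scaled to library size. A floor of 3 counts equals 0.0609 to 0.0727 CPM by the raw totals above, for counting error only. Erythroid, neutrophil and macrophage markers were abundant in all 6 libraries. The erythroid list summed to between 9783 and 18671 CPM, the neutrophil list to between 11693 and 23479 and the macrophage list to between 5459 and 7386. Lymphocyte and thrombocyte lists were lower, at between 451 and 575 CPM and between 243 and 330 CPM. Markers of other tissues moved with the genotype or with single libraries. Kidney tubule transcripts summed to between 308 and 416 CPM in mutants and between 527 and 774 in wild type, and skeletal muscle transcripts to between 42.7 and 95.8 CPM in mutants and between 214 and 289 in wild type. SLC5A12, a sodium-coupled transporter gene of the tubule list, was lower in mutants, at 15.6 ± 2.55 CPM against 45.3 ± 6.64 CPM in wild type (SD, n = 3 each). It passed the test (Benjamini-Hochberg adjusted p of edgeR = 0.0405), but not without any single library (from 0.0788 to 0.198). The egg envelope list (zona pellucida genes) had sums of 551, 344 and 3282 CPM for mutants 1, 2 and 3 and of 5.97, 5.61 and 810 CPM for wild type, so the libraries numbered 3 held the most of their genotype. Liver transcripts were highest in the libraries numbered 2, at 1873 CPM in the mutant and 626 CPM in the wild type library. The part of these transcripts in the ftr values was not tested, and the main counts are also given without both libraries numbered 3. Leaving those out does not even out the genotypes. The egg sums left are 551 and 344 CPM in mutants against 5.97 and 5.61 CPM in wild type. The libraries numbered 2, highest in liver transcripts, also stay in, so those counts cannot show what part these transcripts have. In bulk marrow, fewer cells of a type and less RNA per cell cannot be told apart.

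As a whole, the family's transcript level was close in the 2 genotypes, while its copies differed in both directions. Summed over all 70 members, the level was 604, 617 and 483 CPM in the mutant libraries and 553, 529 and 511 CPM in wild type, or 568 ± 73.5 and 531 ± 20.8 (SD, n = 3 each). The genotypes overlapped in this sum. Of the 70 members, 65 had enough counts to be tested, and 35 of these had a log2 fold change (mutant minus wild type) above 0, against 51.9% of all 21893 genes tested. The median of the tested members was 0.06 and that of all genes tested 0.02. The median absolute log2 fold change was 0.65 over the members and 0.25 over all genes tested, and 17 members (26.2%) lay at or beyond a 2-fold difference, against 11.1% of all genes.

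One member passed the test over all genes. ftr80 was called higher in mutants and no member was called lower. So 1 of 65 (1.54%) had an adjusted p under 0.05 by the quasi-likelihood test of edgeR, against 0.301% of all genes tested. Over all genes, 0.0959% were called higher and 0.206% lower. The share of members rests on ftr80 alone, which passed the filter of low counts only through its mutant libraries. Of the 64 members over the filter level in both genotypes, 0 passed by edgeR and 28 had an unadjusted p under 0.05. Of the same 64, DESeq2 called 9 higher and 6 lower, against 1.67% and 2.46% of all genes in its own fit, which is a wider set. Among the 21893 genes tested by edgeR, DESeq2 called 398 higher and 570 lower. At an unadjusted p under 0.05 stood 29 of 65 members (44.6%), 16 higher and 13 lower in mutants. The same share over all genes tested was 11.9%, with 5.00% higher and 6.93% lower. In 34 members (52.3%) the 3 libraries of one genotype lay all above or all below those of the other, 18 with the mutants above and 16 with the mutants below, against 18.2% of all genes tested (7.88% above and 10.3% below). The first share was alike in copies with and without exon bases shared with another gene. Unadjusted p was under 0.05 in 21 of 47 tested members with no shared exon base (44.7%) and in 8 of 18 with shared bases (44.4%).

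The count of calls moved with the model and with single libraries. With the replicate number as a block, 5 members passed, ftr80, ftr73 and ftr38 higher and ftr96 and ftr88 lower, against 2.14% of all genes in that fit (1.17% higher and 0.964% lower). DESeq2 called 16 of 67 members, 10 higher and 6 lower, against 4.13% of all genes (1.67% higher and 2.46% lower). Without both libraries numbered 3, a choice made after seeing the data, 3 members passed, all higher, against 1.43% of all genes (1.14% higher and 0.289% lower), and 26 had an unadjusted p under 0.05, against 11.6% of all genes. Those passing were ftr80, ftr25 and ftr86. For ftr80 and ftr86 the wild type libraries left were all under the filter level of 0.213 CPM. These genes entered that fit only through mutant libraries and could be called in no other direction. By edgeR 0 members passed without any single one of the 6 libraries, with between 18 and 30 at an unadjusted p under 0.05. The lowest of these counts were 18 without tet2 mutant 2 and 19 without wild type 3, where 10.6% and 11.7% of all genes had such a p.

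**Figure D1:**
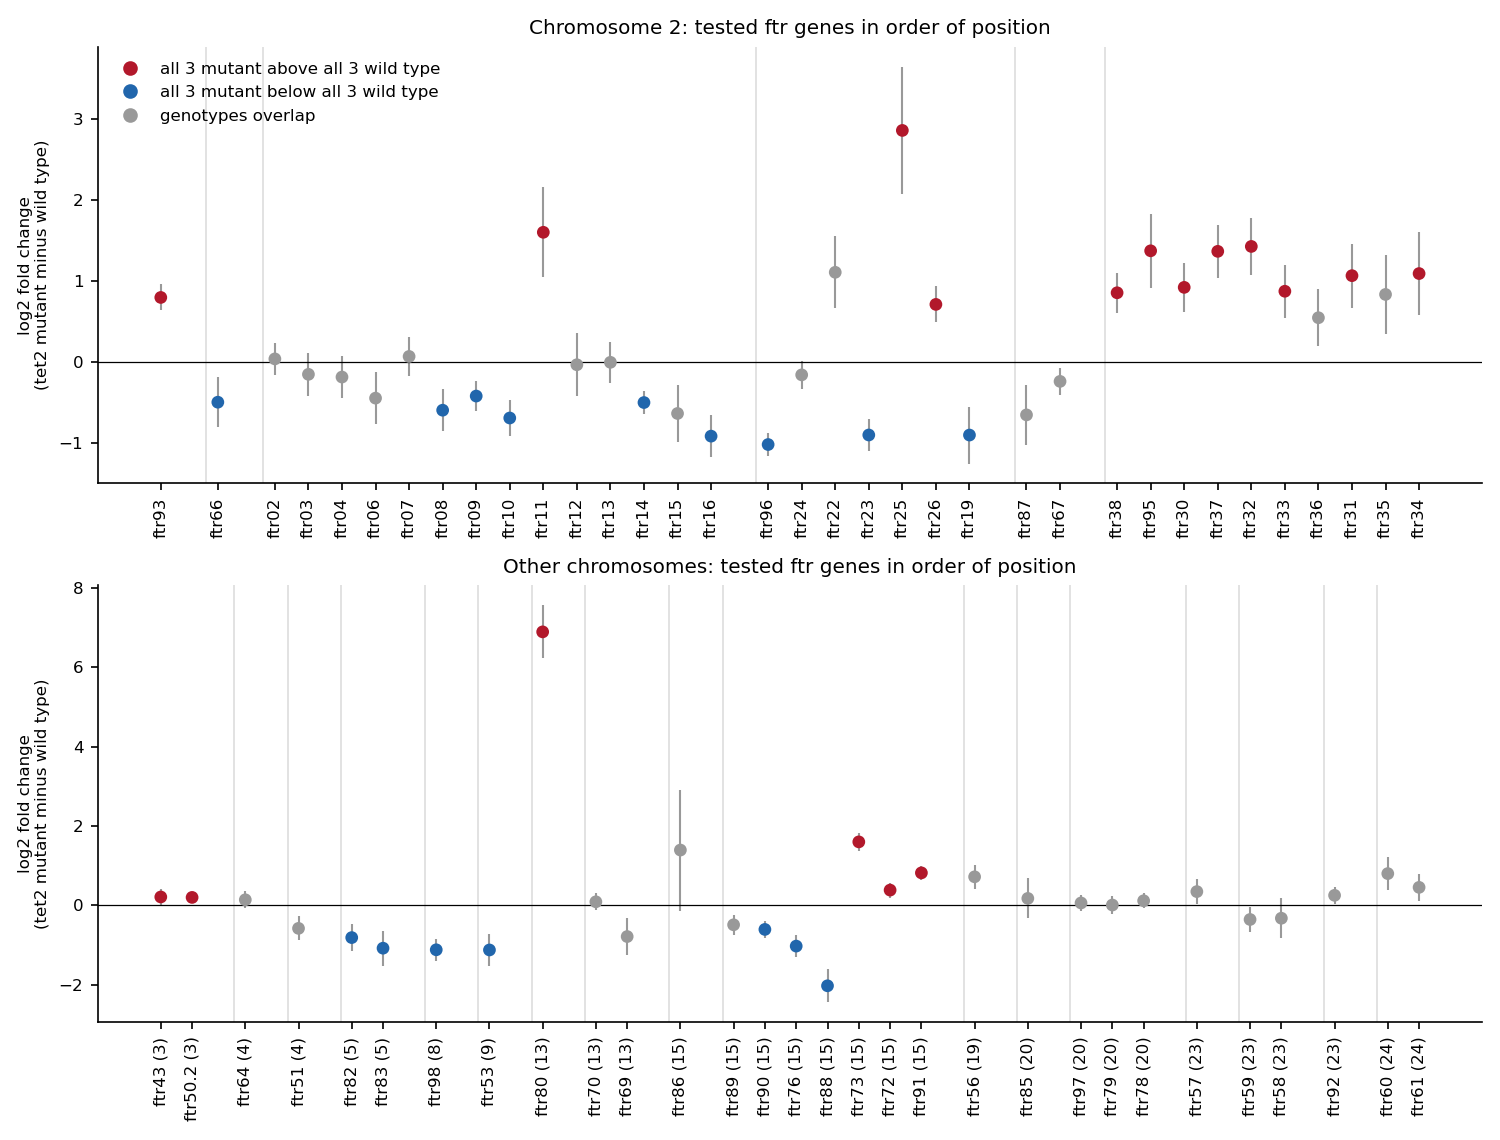
Log2 fold change (tet2 mutant minus wild type, vertical axis) of the 65 tested ftr genes in order of position, with bars of 1 standard error; grey vertical lines part runs of members more than 1 Mb apart, and chromosome numbers stand in brackets in the lower panel. Red points have all 3 mutant libraries above all 3 wild type libraries (18 members), blue points the reverse (16 members), and grey points overlap; the 10 members at the right end of chromosome 2 are all above 0, and ftr80 on chromosome 13 stands highest at 6.89.

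By position, the members lie on 13 chromosomes, with 36 of the 70 on chromosome 2. Joining neighbours that lie within 1 Mb of each other gave 11 blocks of several copies with 53 members in all, and 17 members that stand alone. The largest blocks hold 14, 10 and 7 copies on chromosome 2 and 7 copies on chromosome 15. Coordinates are taken from the deposited counts (GRCz10) and cover whole genes. Every fold change below is from the same edgeR fit, and SE is its standard error.

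ftr80 (ENSDARG00000067661, chromosome 13, 33321646 to 33328414, plus strand) stands alone and was nearly silent in wild type. Its level was 2.27, 3.29 and 3.60 CPM in mutants 1, 2 and 3, against 0, 0.0478 and 0.0221 CPM in wild type. All mutant libraries were far above all wild type libraries, and the wild type values lay below the floor of 3 counts. Summed per genotype, 443 counts in mutants stood against 3 in wild type, a ratio of 134 with a 95% exact counting interval of 45.5 to 651. That interval covers counting error of the pooled reads only and leaves out the spread between libraries. The fitted log2 fold change was 6.89 (SE 0.67; Benjamini-Hochberg adjusted p of edgeR = 0.0321), and under the other settings tried the adjusted p ran from 8.00e-12 to 0.145. The call ended without any single one of the 6 libraries (adjusted p from 0.0718 to 0.145, edgeR with Benjamini-Hochberg adjustment), while the log2 fold change stayed between 6.35 and 7.78. This member entered the test only through its mutant libraries, since 0 wild type libraries reached the level of 0.213 CPM that the filter of low counts uses. Its exons share no base with another gene. Of 37 other tested genes within 500 kb, 3 (8.11%) had an unadjusted p under 0.05 and 0 passed by edgeR.

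The 10 copies near the right end of chromosome 2 (59052389 to 59279173, all on the minus strand) were all higher in mutants on average, in the order ftr38, ftr95, ftr30, ftr37, ftr32, ftr33, ftr36, ftr31, ftr35 and ftr34. Their summed level was 132, 138 and 96.9 CPM in the mutant libraries and 84.3, 70.1 and 41.6 CPM in wild type, so each mutant library was above each wild type library. Log2 fold changes ran from 0.55 to 1.43 with a median of 0.996. Unadjusted p was under 0.05 in 7 of the 10, and in 8 the genotypes did not overlap; 0 passed over all genes by edgeR, and DESeq2 called 4. Over all genes, 11.9% had such a p, 18.2% did not overlap and DESeq2 called 4.13%. Within both genotypes the library numbered 3, with the most egg transcripts, had the lowest sum. Among 10 tested genes of other families within 500 kb of the block, 2 (20%) had an unadjusted p under 0.05, both higher.

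Within this block ftr38 (ENSDARG00000095678, 59052389 to 59230184) was counted highest, at 64.0, 62.9 and 49.0 CPM in mutants, against 42.5, 32.1 and 22.4 CPM in wild type. The mutant libraries lay above the wild type ones without overlap, and wild type 3 was lowest. Its log2 fold change was 0.86 (SE 0.25; Benjamini-Hochberg adjusted p of edgeR = 0.25). With the replicate block it passed at 0.90 (adjusted p = 0.0497, edgeR with Benjamini-Hochberg adjustment), and over all settings tried its adjusted p ran from 0.0395 to 0.645. This gene spans most of the block and shares 7.86% of its exon bases with ftr30, ftr37, ftr33 and ftr31, so reads in those bases are of uncertain origin.

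ftr32 (ENSDARG00000093203, 59148014 to 59150591) shares no exon base and had the largest log2 fold change of the block, 1.43 (SE 0.35; Benjamini-Hochberg adjusted p of edgeR = 0.170), from 3.77, 4.38 and 3.28 CPM in mutants and 1.80, 1.6 and 0.840 CPM in wild type. For ftr37 (ENSDARG00000092745, 59124722 to 59133791) the libraries held 5.79, 6.79 and 6.44 CPM in mutants and 3.32, 2.53 and 1.5 CPM in wild type, a log2 fold change of 1.37 (SE 0.32; Benjamini-Hochberg adjusted p of edgeR = 0.163). Neither gene overlapped between genotypes, and DESeq2 called both. By contrast ftr36 (ENSDARG00000087057, 59181615 to 59187859) had 16.9, 17.9 and 9.07 CPM in mutants and 11.7, 12 and 6.28 CPM in wild type, so mutant 3 lay among the wild type libraries (log2 fold change 0.55, SE 0.35; Benjamini-Hochberg adjusted p of edgeR = 0.604). ftr33 (ENSDARG00000095032, 59157967 to 59168295) averaged 13.9 ± 3.58 CPM in mutants and 7.59 ± 2.51 CPM in wild type (SD, n = 3 each).

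**Figure D2:**
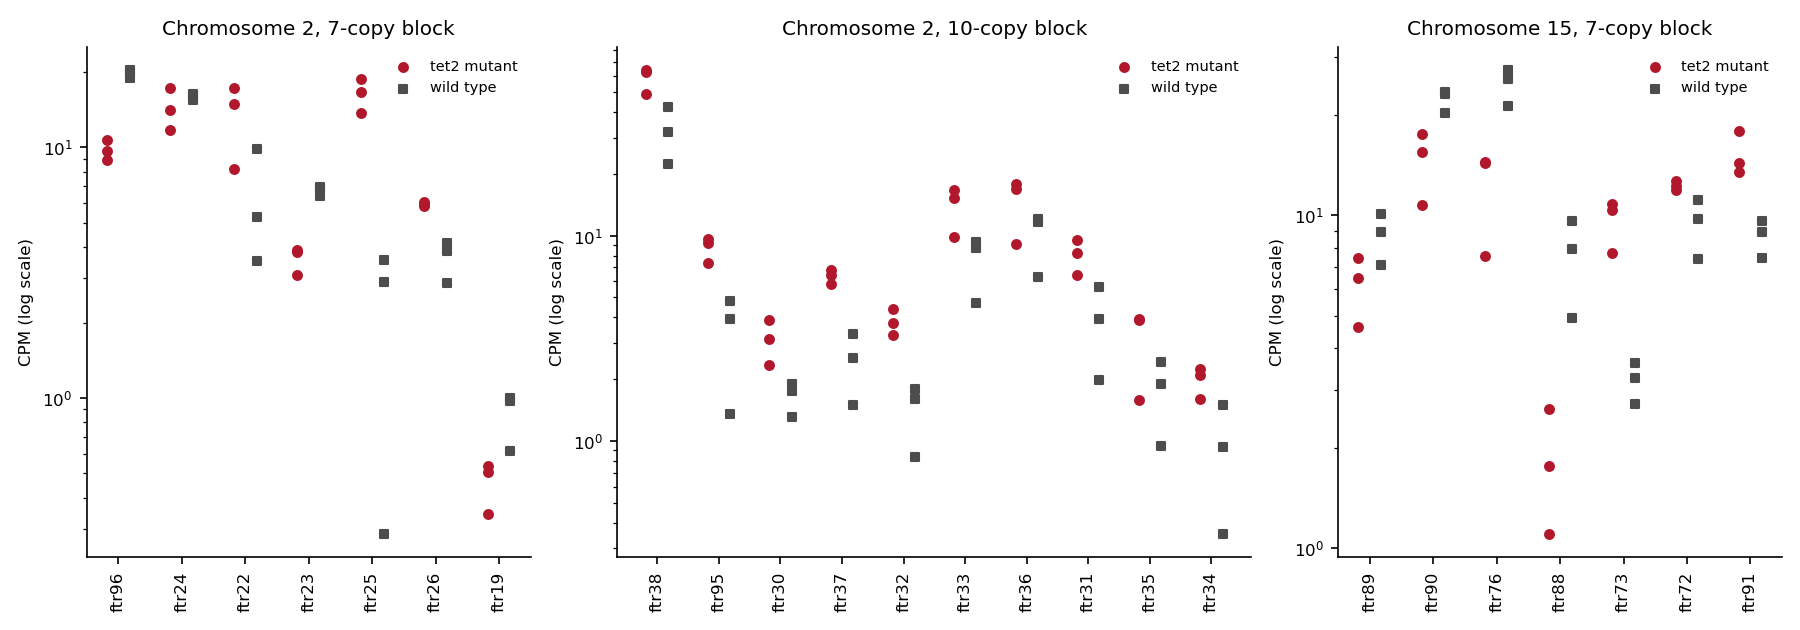
CPM per library (log axis) for every copy of 3 blocks in order of position, with tet2 mutant libraries as red circles at the left of each gene and wild type libraries as grey squares at the right. In the 10-copy block every copy is higher in mutants on average, with overlap of the genotypes for ftr36 and ftr35. Neighbouring copies of the 2 blocks of 7 lie higher or lower in mutants. On chromosome 15 the step from lower to higher falls between ftr88 and ftr73.

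In the 7-copy block on chromosome 15 (41754331 to 41805169, all on the minus strand) the direction changed once along the chromosome. The 4 leftmost copies, ftr89, ftr90, ftr76 and ftr88, were lower in mutants on average, and the 3 rightmost, ftr73, ftr72 and ftr91, were higher. As a sum the block differed little, with 75.1, 80.2 and 60.6 CPM in mutants and 79.0, 90.6 and 84.1 CPM in wild type, and the genotypes overlapped. Unadjusted p was under 0.05 in 5 of the 7 and the genotypes were apart in 6, against 11.9% and 18.2% of all genes. By edgeR 0 passed over all genes, and DESeq2 called 4, against 4.13% of all genes.

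Beside each other at that step, ftr88 (ENSDARG00000097679, 41780517 to 41787133) had 1.77, 2.62 and 1.11 CPM in mutants against 9.65, 7.93 and 4.91 CPM in wild type, and ftr73 (ENSDARG00000095298, 41789324 to 41791968) had 7.70, 10.4 and 10.8 CPM in mutants against 3.60, 3.25 and 2.72 CPM in wild type. Neither gene overlapped between genotypes. The log2 fold change of ftr88 was -2.03 (SE 0.41; Benjamini-Hochberg adjusted p of edgeR = 0.115) and that of ftr73 was 1.6 (SE 0.23; Benjamini-Hochberg adjusted p of edgeR = 0.0634). With the replicate block both passed, at adjusted p = 0.0268 and 0.0408 (edgeR, Benjamini-Hochberg). Over all settings tried, adjusted p ran from 3.49e-05 to 0.356 for ftr88 and from 3.89e-08 to 0.257 for ftr73. Neither shares an exon base with another gene.

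ftr91 (ENSDARG00000098004, 41800046 to 41805169) held 14.4, 17.9 and 13.5 CPM in mutants and 9.65, 8.91 and 7.47 CPM in wild type, without overlap, at a log2 fold change of 0.82 (SE 0.18; Benjamini-Hochberg adjusted p of edgeR = 0.148). On the other side of the step, ftr76 (ENSDARG00000076093, 41758263 to 41798441) held 14.4, 14.4 and 7.53 CPM in mutants and 21.3, 25.7 and 27.3 CPM in wild type, at -1.03 (SE 0.27; Benjamini-Hochberg adjusted p of edgeR = 0.207). The annotated span of ftr76 runs across ftr88 and ftr73, and it shares 1120 exon bases with ftr72, which is 61.5% of the exon length of ftr72. ftr72 itself, outside the rule for named members and given after its values were seen, was 12.3 ± 0.409 CPM in mutants and 9.43 ± 1.89 CPM in wild type (SD, n = 3 each). Of 24 tested genes of other families within 500 kb of this block, 13 (54.2%) had an unadjusted p under 0.05, 7 higher and 6 lower. By edgeR 0 of these passed, 2 did with the replicate block, both higher, and DESeq2 called 5 higher and 4 lower. Whether the copies differ beyond their neighbourhood was not tested.

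In the 7-copy block of chromosome 2 (47984269 to 48097601) copies of both directions lay among each other, in the order ftr96 and ftr24 below 0, ftr22 above, ftr23 below, ftr25 and ftr26 above and ftr19 below. ftr24 was close to 0, at a log2 fold change of -0.16. Unadjusted p was under 0.05 in the other 6 of the 7, 3 higher and 3 lower, against 11.9% of all genes tested. ftr96 (ENSDARG00000078065, 47984269 to 48018860) had 9.64, 10.7 and 8.93 CPM in mutants against 20, 19.0 and 20.3 CPM in wild type, so its libraries were close within each genotype and far apart between them. Its log2 fold change was -1.02 (SE 0.14; Benjamini-Hochberg adjusted p of edgeR = 0.0541). It passed with the replicate block (adjusted p = 0.0408, edgeR with Benjamini-Hochberg adjustment) and with the filter of at least 1 CPM in 3 libraries (adjusted p = 0.0461), and over all settings tried the adjusted p ran from 3.92e-08 to 0.237.

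ftr25 (ENSDARG00000093651, 48072636 to 48081090) had the second largest difference of the family, with 18.8, 16.6 and 13.7 CPM in mutants against 3.55, 2.91 and 0.287 CPM in wild type. Every mutant library was above every wild type library, and wild type 3 was lower than the other two. The log2 fold change was 2.86 (SE 0.79; Benjamini-Hochberg adjusted p of edgeR = 0.225), and 2.44 without both libraries numbered 3, where it passed (adjusted p = 0.0138, edgeR with Benjamini-Hochberg adjustment). Over all settings tried its adjusted p ran from 0.000516 to 0.538. Next to it, ftr26 (ENSDARG00000092961, 48081286 to 48090351) had 5.83, 6.06 and 5.93 CPM in mutants against 4.14, 3.84 and 2.87 CPM in wild type, a log2 fold change of 0.71 (SE 0.22; Benjamini-Hochberg adjusted p of edgeR = 0.278). It shares 668 exon bases (21.8%) with ENSDARG00000038570 on the same strand. On its other side, ftr23 (ENSDARG00000067985, 48052053 to 48057545) had 3.83, 3.09 and 3.89 CPM in mutants against 6.83, 6.97 and 6.39 CPM in wild type, at -0.90 (SE 0.20; Benjamini-Hochberg adjusted p of edgeR = 0.144). Among 18 tested genes of other families within 500 kb, 4 (22.2%) had an unadjusted p under 0.05, 2 in each direction.

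The 14-copy block of chromosome 2 (42386645 to 43892148) held smaller differences, with 11 of 14 members below 0 and a median log2 fold change of -0.30. Unadjusted p was under 0.05 in 4 members (28.6%), 3 lower and 1 higher. It was also under 0.05 in 16 of 51 tested genes of other families within 500 kb (31.4%), 14 of them lower. Both shares were of about the same size and above the 11.9% of all genes tested. The genotypes did not overlap in 6 members (42.9%), against 18.2% of all genes. Among the same 51 genes of other families they did not overlap in 17 (33.3%), 14 of them lower. DESeq2 called 1 member higher and 1 lower, against 4.13% of all genes, and 0 passed by edgeR. ftr14 (ENSDARG00000053293, 43281729 to 43286282) had 9.81, 9.77 and 10.9 CPM in mutants and 13.7, 14.1 and 15.3 CPM in wild type, at -0.50 (SE 0.14; Benjamini-Hochberg adjusted p of edgeR = 0.237). ftr16 (ENSDARG00000032043, 43889576 to 43892148) had 5.20, 5.56 and 3.12 CPM in mutants and 8.72, 8.38 and 9.06 CPM in wild type, at -0.91 (SE 0.26; Benjamini-Hochberg adjusted p of edgeR = 0.240). The genotypes did not overlap for either gene. The 1 higher copy, ftr11, described after its values were seen, had 2.95, 7.77 and 2.73 CPM in mutants and 2.32, 1.1 and 0.995 CPM in wild type. Mutant 2 was highest, and all mutant libraries were above all wild type ones. Its log2 fold change was 1.6 (SE 0.55; Benjamini-Hochberg adjusted p of edgeR = 0.327) and 0.94 without tet2 mutant 2. DESeq2 called it (adjusted p = 0.0492), and over all settings tried the adjusted p ran from 0.0492 to 0.775.

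**Figure D3:**
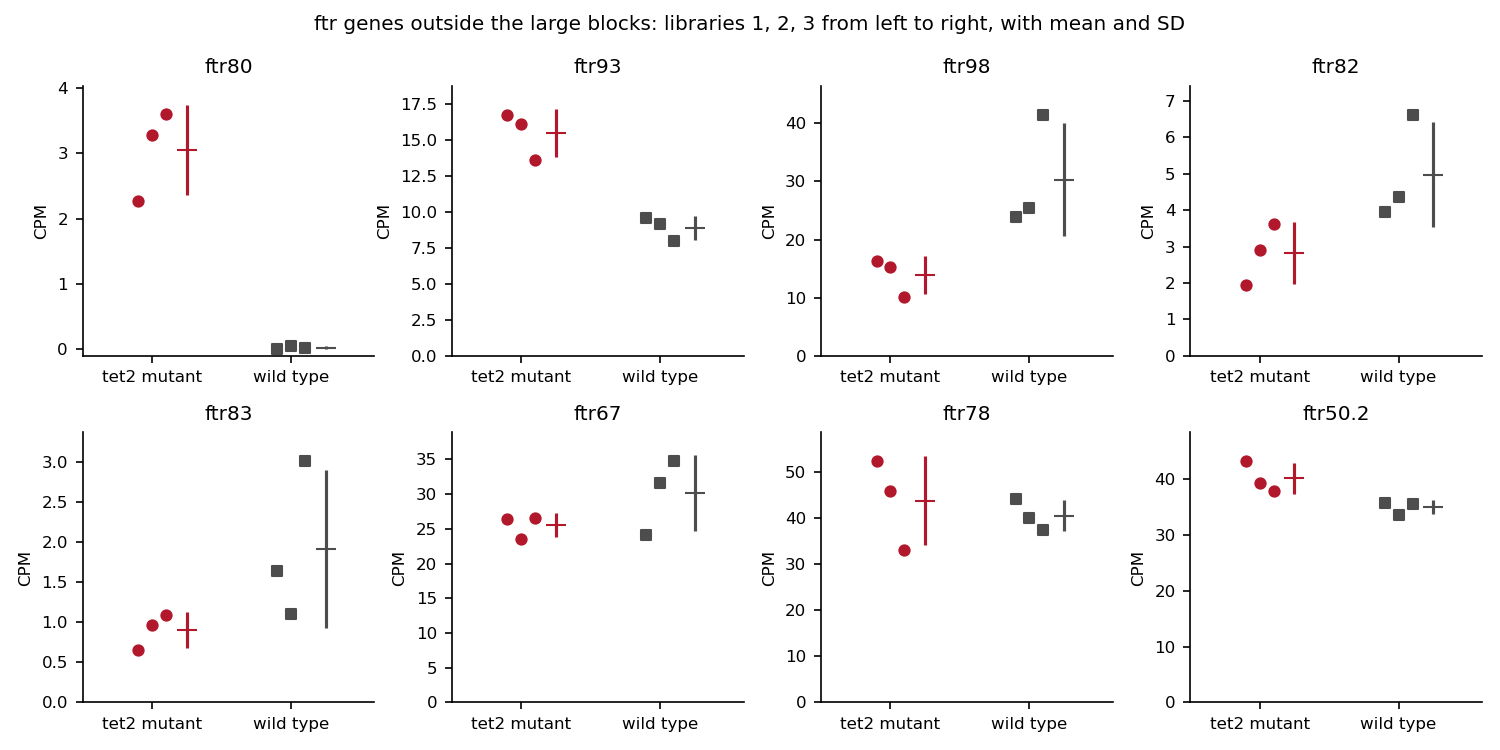
CPM per library for 8 ftr genes outside the large blocks, with the 3 tet2 mutant libraries (red circles) left of the 3 wild type libraries (grey squares), and mean with SD as cross and bar beside each group. ftr80 lies at or near 0 in wild type, ftr98, ftr82 and ftr83 are lower in every mutant library, and ftr67 and ftr78 overlap between genotypes.

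Scaled by exon length to RPKM, a level per length that can be set side by side between genes, the members ran from 0.0425 to 14.9 RPKM as means over 6 libraries, with a median of 2.45 over the 65 tested members and 3.86 over all genes tested. The members with the highest levels per length were ftr67 (14.9 RPKM), ftr98 (13.1), ftr78 (9.14), ftr36 (7.77), ftr50.2 (7.63), ftr91 (7.24), ftr33 (6.67) and ftr38 (6.50). ftr67 (ENSDARG00000098820, chromosome 2, 51331557 to 51352857) had 26.5, 23.6 and 26.6 CPM in mutants and 24.1, 31.6 and 34.7 CPM in wild type, and the genotypes overlapped (log2 fold change -0.24, SE 0.16; Benjamini-Hochberg adjusted p of edgeR = 0.629). It shares 168 exon bases with si:ch211-249o11.3 on the opposite strand.

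ftr98 (ENSDARG00000052332, chromosome 8, 39793118 to 39804886) had 16.3, 15.2 and 10.1 CPM in mutants and 23.9, 25.5 and 41.4 CPM in wild type. All mutant libraries were below all wild type ones, and the 2 extremes were the libraries numbered 3. Its log2 fold change was -1.12 (SE 0.28; Benjamini-Hochberg adjusted p of edgeR = 0.183), and -0.66 without both libraries numbered 3. ftr78 (ENSDARG00000055436, chromosome 20, 27021944 to 27038363) had 43.8 ± 9.74 CPM in mutants and 40.5 ± 3.36 CPM in wild type (SD, n = 3 each), with a log2 fold change of 0.11 that was -0.04 without tet2 mutant 1. ftr50.2 (ENSDARG00000054153, chromosome 3, 4644659 to 4685889) had 43.1, 39.3 and 37.8 CPM in mutants and 35.8, 33.6 and 35.5 CPM in wild type. Its genotypes did not overlap, but the difference was small (log2 fold change 0.20, SE 0.11; Benjamini-Hochberg adjusted p of edgeR = 0.536).

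At the left end of chromosome 2, ftr93 (ENSDARG00000039852, 823878 to 834786) had 16.7, 16.1 and 13.6 CPM in mutants and 9.56, 9.15 and 7.96 CPM in wild type, without overlap (log2 fold change 0.80, SE 0.16; Benjamini-Hochberg adjusted p of edgeR = 0.112). Of 16 other tested genes within 500 kb, 2 (12.5%) had an unadjusted p under 0.05, both lower. DESeq2 called ftr93 and ftr98.

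ftr82 and ftr83 are neighbours on chromosome 5 and belong to the older, more conserved part of the family; ftr83 is known from zebrafish to strengthen interferon-dependent protection against virus at mucosal surfaces such as the gills. ftr82 (ENSDARG00000055647, 30106980 to 30115072) had 1.94, 2.90 and 3.62 CPM in mutants and 3.94, 4.35 and 6.61 CPM in wild type. ftr83 (ENSDARG00000025403, 30141574 to 30149340) had 0.652, 0.966 and 1.09 CPM in mutants and 1.64, 1.1 and 3.01 CPM in wild type. Both lay lower in all mutant libraries, narrowly so for ftr83, with log2 fold changes of -0.82 (SE 0.34) and -1.08 (SE 0.45; Benjamini-Hochberg adjusted p of edgeR = 0.408 and 0.409). In each genotype the library numbered 3 was the highest for both genes. ftr51 (ENSDARG00000029105, chromosome 4, 74899854 to 74907791) had 8.46, 9.69 and 4.88 CPM in mutants and 9.59, 14.3 and 10.6 CPM in wild type, with overlap (log2 fold change -0.58, SE 0.30; Benjamini-Hochberg adjusted p of edgeR = 0.508).

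ftr86 (ENSDARG00000076839, chromosome 15, 545650 to 555950), singled out after its values were seen, was higher in the mutant of each same-numbered pair and highest in the libraries numbered 3. It had 2.25, 1.72 and 14.0 CPM in mutants and 0.205, 0.119 and 6.50 CPM in wild type. The 6 libraries stood in the same order for ftr86 as for the summed egg envelope transcripts given above. Its log2 fold change was 1.39 (SE 1.52; Benjamini-Hochberg adjusted p of edgeR = 0.761), -0.20 without tet2 mutant 3 and 5.19 without wild type 3. With the replicate block it was 2.47 (Benjamini-Hochberg adjusted p of edgeR = 0.0886). It passed at 3.58 without both libraries numbered 3 (adjusted p = 0.0422, edgeR with Benjamini-Hochberg adjustment). The wild type libraries left in that fit, at 0.205 and 0.119 CPM, were both under the filter level of 0.213 CPM. There ftr86 entered the test only through its mutant libraries. Without those libraries the egg envelope sums also lay apart between the genotypes. The part of egg transcripts in the ftr86 values was not tested. DESeq2 gave no adjusted p for ftr86. Over the other settings tried its adjusted p ran from 0.0422 to 0.987.

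Related genes and the interferon pathway give the surroundings of these values. Interferon effectors are genes that interferon induces and that act on virus. Of 31 tested, 25 had a log2 fold change above 0 (median 0.33), against 51.9% of all genes. An unadjusted p under 0.05 was found in 29.0% of them, 7 higher and 2 lower, against 11.9% of all genes (5.00% higher and 6.93% lower). By edgeR 0 effectors passed. With the replicate block 1 effector passed, against 2.14% of all genes. It was mxg, an Mx family gene that was lower in mutants at a log2 fold change of -2.01 (Benjamini-Hochberg adjusted p of edgeR = 0.0173, and from 0.0128 to 0.747 over all settings). DESeq2 called 3 effectors higher and 2 lower, against 4.13% of all genes. CMPK2, a nucleotide kinase of this list, had 6.13 ± 0.43 CPM in mutants and 2.83 ± 1.08 CPM in wild type, and gbp3, a guanylate-binding protein gene, had 45.7 ± 10.4 CPM in mutants and 79.5 ± 16.4 CPM in wild type (SD, n = 3 each). Of 36 tested sensors and factors of the pathway, 3 (8.33%) had an unadjusted p under 0.05, all higher, against 11.9% of all genes. By edgeR, with or without the replicate block, and by DESeq2, 0 of them passed. The transcription factor stat2 had 271 ± 16.2 CPM in mutants and 210 ± 16.2 CPM in wild type, and the ligand ifnphi2 had 0.299 ± 0.0779 CPM in mutants and 0.153 ± 0.0326 CPM in wild type (SD, n = 3 each). For ifnphi2 the wild type libraries held 0.137, 0.191 and 0.133 CPM, all under the filter level of 0.213 CPM. This gene is among those 3 and entered the test only through its mutant libraries. Summed effectors overlapped between genotypes, at 1879, 2194 and 1370 CPM in mutants and 1995, 1657 and 1289 CPM in wild type. In other TRIM families, 4 of 15 tested btr genes (26.7%) and 9 of 60 tested trim genes (15%) had an unadjusted p under 0.05. Of all genes, 11.9% had such a p, so the trim share was near it. By edgeR 0 btr or trim genes passed. With the replicate block btr04, trim35-21 and TRIM36 passed, all higher in mutants on average, against 2.14% of all genes. DESeq2 called 2 btr and 5 trim genes, all higher, against 4.13% of all genes. In the block fit the log2 fold change was 1.73 for btr04 (Benjamini-Hochberg adjusted p of edgeR = 0.0267), 4.11 for trim35-21 (0.0293) and 1.63 for TRIM36 (0.0338). Over all settings tried the adjusted p ran from 0.0267 to 0.932 for btr04, from 6.99e-07 to 0.354 for trim35-21 and from 0.0338 to 0.98 for TRIM36. btr04 had 9.11 ± 8.88 CPM in mutants and 2.76 ± 2.74 CPM in wild type (SD, n = 3 each). TRIM36 had 39.6 ± 42.8 CPM in mutants and 16.2 ± 21.1 CPM in wild type. For both genes the SD was about as large as the mean. Without the block their adjusted p was 0.528 and 0.707 (edgeR with Benjamini-Hochberg adjustment). btr29 had 11.2 ± 3.34 CPM in mutants and 4.19 ± 1.36 CPM in wild type, and btr09 had 17.3 ± 3.31 CPM in mutants and 8.67 ± 2.48 CPM in wild type (SD, n = 3 each). trim35-21 had 1.64, 1.98 and 2.63 CPM in mutants and 0.0228, 0.0955 and 0.287 CPM in wild type, and trim35-25 averaged 0.769 ± 0.396 CPM in mutants and 0.121 ± 0.0689 CPM in wild type (SD, n = 3 each). In wild type trim35-25 had 0.0683, 0.0955 and 0.199 CPM, all under the filter level of 0.213 CPM. It entered the edgeR test only through its mutant libraries, and it is among the 9 trim genes and the 5 that DESeq2 called. Among 243 tested genes of other families within 500 kb of the blocks of several ftr copies, 53 (21.8%) had such a p, 21 higher and 32 lower. By edgeR 0 of them passed, and 6 higher and 1 lower did with the replicate block. That share lies above the 11.9% of all genes and below the 45.3% of the 53 ftr members in those blocks; the differences between these shares were not tested, and the 500 kb window was chosen after seeing the data.

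**Figure D4:**
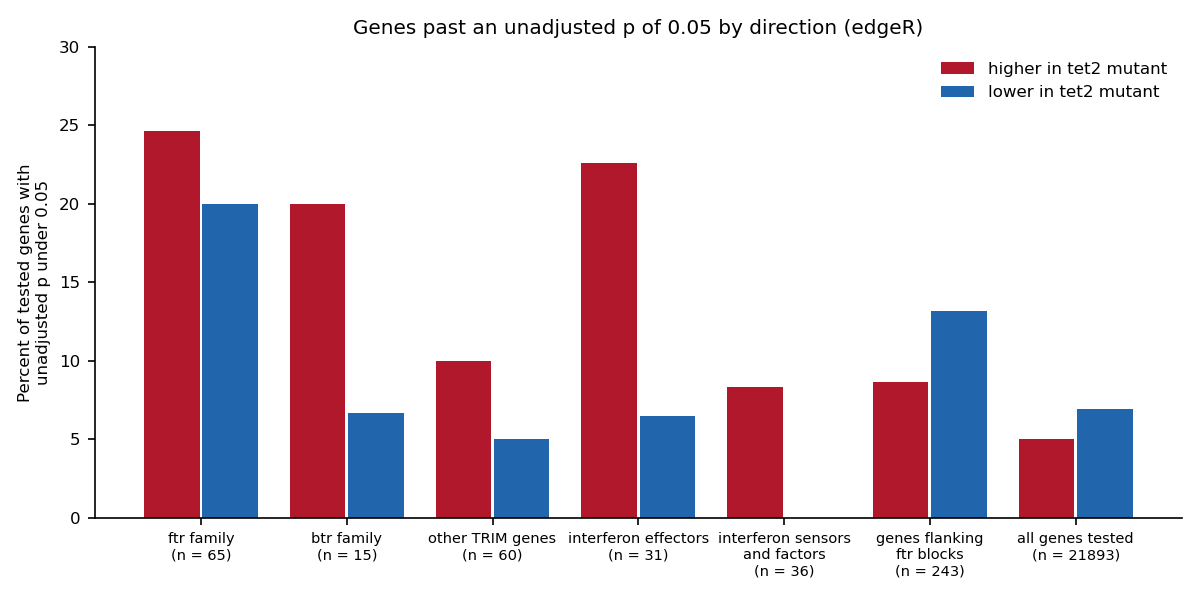
Percent of tested genes (vertical axis) with an unadjusted p under 0.05 in the edgeR comparison of tet2 mutant with wild type, higher in mutants in red and lower in blue, for the ftr family, 4 comparison lists, genes of other families flanking ftr blocks and all genes tested; n below each name is the number of genes tested. The ftr family has 16 higher and 13 lower of 65, and the interferon effectors have 7 higher and 2 lower of 31.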

How the data were processed

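Kidney marrow RNA of 3 tet2 mutant and 3 wild type libraries was compared. The authors deposited 1 table of whole read counts per library, not normalized. The submitters' processing notes name Trimmomatic 0.36, STAR 2.5.2b and GRCz10. How reads were counted, on which strand, and what became of reads with several matches is not given there. A table of gene names covered 25752 of 31484 gene IDs (81.8%). It names 74 ftr genes, of which 70 are in the count tables.

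Genes were filtered with filterByExpr, scaled by TMM and tested with the two-sided quasi-likelihood F test of edgeR 4.0.16 (R 4.3.3), with Benjamini-Hochberg adjustment over 21893 genes and no covariate. CPM values are TMM-scaled, and SE is the absolute log2 fold change over the square root of F. DESeq2 1.42.0 and limma 3.58.1 (voom) served as alternatives. The test was run on simulated counts, drawn independently for each library with the same dispersion for all genes and no shared replicate effect. That run cannot tell how the test behaves with the likeness between same-numbered libraries described below. P-values of the main fit set the difference between genotypes against the spread of libraries within a genotype. That fit has no block, so this spread includes whatever same-numbered libraries share. Libraries of a genotype differed well beyond counting noise (chi-square over its degrees of freedom from 51.9 to 154 for each pair).

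Libraries share replicate numbers in the labels. Deviations from the genotype mean correlated at r = 0.414, 0.589 and 0.715 for the same-numbered libraries 1, 2 and 3 and at between -0.550 and 0.188 for the others, across 17535 genes, which are not independent replicates. The pairing is read from the data, and values with the replicate number as a block stand beside the ftr, interferon, btr and trim results whose call they change.

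The members and lists were chosen with earlier results of these data known. Named members are those with an adjusted p under 0.05, up to 16 of the 27 with an unadjusted p under 0.05 and no overlap, the 8 highest by RPKM, and ftr14, ftr51, ftr67, ftr82 and ftr83. From the comparison lists up to 4 passing genes or the 2 with the smallest p were taken. Of 206 listed symbols, 37 matched no counted gene. No sequences are printed, since none was used here.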

Additional observations from a re-analysis of the deposited data

How the results depend on the processing

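The median log2 fold change of the tested members, 0.06, moved by less than the spread between mutant libraries (SD 0.174) under every alternative run, and it lay between -0.08 and 0.13 when single libraries were left out. The number of members passing was 1 with RLE size factors, library totals, voom and no filter, 2 with at least 1 CPM in 3 libraries, 5 with the replicate block, 16 with DESeq2 and 3 without both libraries numbered 3. Leaving out 1 library each gave from 0 to 0 members passing, from 18 to 30 at an unadjusted p under 0.05, and from 36 to 44 without overlap. The last compares with between 22.2% and 34.4% of all genes in these fits and 18.2% with all libraries, since 2 libraries against 3 overlap less often by construction. Over all genes, 66 passed, 36 with library totals, 468 with the replicate block, 999 with DESeq2, 312 without both libraries numbered 3, and from 2 to 15 with 1 library left out. The cause of these shifts was not tested. Of the passing genes, 31.8% were higher in mutants, against 54.9% with the replicate block, 40.4% with DESeq2 and 79.8% without both libraries numbered 3. The 24 named members kept their direction in all settings, other than ftr78 (0.112), which was -0.035 without tet2 mutant 1 and from -0.035 to 0.267 with single libraries left out. Most were named for having no overlap between genotypes. For such members leaving out libraries could not be expected to turn the direction, so their kept direction is no check. The replicate block changed the call of ftr38, ftr73, ftr88 and ftr96 and of no other named member. Counts were few for the 5 members left untested and for ftr80 in wild type, and the effect of depth on them was not tested.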

Other observations

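The 5 members with too few counts to be tested were ftr01, ftr14l, ftr54, ftr55 and ftr99, and each was under 0.4 CPM in every library other than ftr54 in wild type 2, at 0.597 CPM. ftr01 (chromosome 2, 11886671 to 11894106) had 0.0210, 0.129 and 0.198 CPM in mutants and 0.205, 0.334 and 0.354 CPM in wild type. ftr99 (chromosome 5) was highest in the libraries numbered 3 of both genotypes, at 0.237 CPM in the mutant and 0.243 CPM in the wild type library, against between 0.0215 and 0.0683 CPM in the other libraries.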
